A study of Rattus norvegicus with 9 samples.

Results

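miR-451, miR-486 and miR-144 are the miRNAs best known from red blood cells, and here they were followed through exosomes, the small vesicles that cells release, collected from cultures of rat peritoneal macrophages. They were taken by name: each row of the deposited miRNA table named miR-451, miR-486 or miR-144 was a member, with or without an arm suffix, together with its tags in the files of single libraries. This gave 3 of 201 rows, miR-451-5p, miR-486 and miR-144-3p. The macrophages were obtained by washing the peritoneal cavity of untreated rats (no strain or age is stated in the labels) and were kept in medium with 10% fetal bovine serum. In the LPS+AS-IV group, cultures had 24 h with 150 µM astragaloside IV, a plant saponin from Astragalus, and then lipopolysaccharide (LPS), a component of the bacterial outer membrane that activates macrophages. LPS cultures received LPS at 100 ng/ml for 6 h. Control cultures received the solvent DMSO at 0.1% for 24 h, and both agents were dissolved in DMSO as well. Each group had 3 libraries, and whether these were separate cultures or animals is not stated in the labels. The p-values therefore reflect the spread between these libraries alone, which may be technical.

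As background, miR-451 and miR-144 are cut from 1 primary transcript that the erythroid factor GATA1 switches on, and miR-486 lies in an intron of Ank1, the gene of the red-cell membrane protein ankyrin. miR-451 does not need Dicer. Its short hairpin is loaded into the Argonaute protein AGO2, which slices the 3′ arm, and the sliced product is then shortened from its 3′ end, so that mature miR-451 comes in several lengths with 1 common start. Mature red cells have no nucleus but keep these miRNAs, and in plasma the ratio of miR-451 to miR-23a-3p, a miRNA little affected by red cells, is a usual measure of haemolysis. In bulk exosome RNA, fewer red cells or vesicles and less RNA in each cannot be told apart.

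Of the 3 members, 2 matched RefSeq's mature miRNAs by name, and their sequences follow with the seed, bases 2 to 8, in capitals. The miR-486 line is the 22-nt tag that the deposited files name rno-miR-486, written with T. The 3 seeds differ from each other.
rno-miR-451-5p: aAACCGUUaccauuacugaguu
rno-miR-144-3p: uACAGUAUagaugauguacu
rno-miR-486: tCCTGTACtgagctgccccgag
In the RefSeq annotation (GRCr8), miR-451-5p lies at chr10:63459585-63459606 on the plus strand, within the Mir451a hairpin of 72 nt at chr10:63459569-63459640, and 89 bases separate that hairpin from the hairpin of Mir144 before it. The hairpin is shown because the lengths described below are read along it, with miR-451-5p in capitals from base 17.
Mir451a: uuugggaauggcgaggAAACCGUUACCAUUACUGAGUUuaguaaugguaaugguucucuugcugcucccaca
The tags that carried most miR-451 reads are shown next, as DNA, with the bases past the end of the annotated mature form in capitals.
miR-451, 21 nt: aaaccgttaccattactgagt
miR-451, 22 nt: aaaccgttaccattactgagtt
miR-451, 23 nt: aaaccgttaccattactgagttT
miR-451, 26 nt: aaaccgttaccattactgagttTAGT
The 5 tags with most miR-486 reads are shown too, with the letters past the 22-nt tag in capitals, because different libraries turned out to be led by different ones. No miR-486 hairpin was available here, so whether these letters follow it, as they do for miR-451, was not checked.
miR-486, 25 nt: tcctgtactgagctgccccgagTTT
miR-486, 23 nt ending in T: tcctgtactgagctgccccgagT
miR-486, 24 nt: tcctgtactgagctgccccgagTT
miR-486, 23 nt ending in A: tcctgtactgagctgccccgagA
miR-486, 22 nt: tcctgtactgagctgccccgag

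Reads given any assignment ranged over the 9 libraries between 3484099 and 9527483, and reads in the miRNA table between 15426 (LPS+AS-IV 1) and 546599 (LPS+AS-IV 3). The last of these stands apart, since every other library had at most 75528 table reads. No replicate pair agreed within counting noise (chi-square divided by degrees of freedom, at least 32.0). With edgeR's quasi-likelihood test over the 94 miRNAs that passed a filter on low counts, 1 was called in LPS against Control (1.06%), 0 in LPS+AS-IV against LPS and 2 in LPS+AS-IV against Control (2.13%), at an adjusted p under 0.05. Those called were let-7a-5p and miR-3596a, whose shared tag was named differently between libraries. With each tag given to 1 miRNA, the counts were 0, 0 and 0. In LPS+AS-IV against LPS, 3 miRNAs had an unadjusted p under 0.05 by edgeR, and DESeq2 called 1. None of the members was called, and 1 of the 3, miR-144-3p, did not pass the filter.

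miR-451-5p was among the abundant miRNAs of every library, and its groups differed by less than the spread between their libraries. The table gave it 339, 1978 and 19353 reads in LPS+AS-IV, 928, 1782 and 1764 reads in LPS, and 1707, 919 and 3004 reads in Control. Scaled with TMM factors to counts per 1000000 (CPM), the level was 24450, 30153 and 38661 CPM for LPS+AS-IV, 33391, 30507 and 28283 CPM for LPS, and 36854, 27449 and 40371 CPM for Control. The ranges of the 3 groups overlap, and miR-451-5p ranked between 8th and 13th in each library's table. It averaged 31088 ± 7152 CPM in LPS+AS-IV, 30727 ± 2561 CPM in LPS and 34891 ± 6681 CPM in Control (SD, n = 3 each). The log2 fold change was -0.18 (SE 0.31, adjusted p = 0.964) for LPS against Control, 0.017 (SE 0.31, adjusted p = 0.978) for LPS+AS-IV against LPS, and -0.17 (SE 0.31, adjusted p = 0.981) for LPS+AS-IV against Control. Adjusted p-values are edgeR's, by Benjamini-Hochberg over the 94 miRNAs. Each SE of a log2 fold change is worked back from that test, as its absolute value over the square root of the F statistic. The log2 CPM of miR-451-5p had an SD of 0.24 over the 9 libraries, the second lowest of the 94 miRNAs tested, whose median SD was 2.33. That median takes in miRNAs with no reads in some libraries, so it is a weak yardstick for an abundant one. In LPS against Control, the also abundant miR-92a-3p and miR-191a-5p had an SE of 0.29 and 0.30. The sign of the small miR-451-5p changes depends on the scaling. With all assigned reads as the library size, its log2 fold change was 2.03 in LPS+AS-IV against Control. The median of all tested miRNAs was 1.64 there, and LPS+AS-IV 3 holds most of the miRNA reads of its group.

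miR-486 varied far more, and its Control libraries were the most alike. Its table reads were 130, 132 and 0 in LPS+AS-IV, 83, 8 and 0 in LPS, and 287, 336 and 610 in Control. In CPM these were 9376, 2012 and 0 in LPS+AS-IV, 2986, 137 and 0 in LPS, and 6196, 10036 and 8198 in Control. Every LPS library lay below every Control library, as was so for 11 of the 94 miRNAs (11.7%). The LPS+AS-IV libraries ran from within the Control range to below it. miR-486 averaged 3796 ± 4936 CPM in LPS+AS-IV, 1041 ± 1686 CPM in LPS and 8143 ± 1920 CPM in Control (SD, n = 3 each). By edgeR the log2 fold change was -2.98 (SE 2.05, adjusted p = 0.854) for LPS against Control, 1.87 (SE 1.97, adjusted p = 0.963) for LPS+AS-IV against LPS, and -1.11 (SE 1.92, adjusted p = 0.981) for LPS+AS-IV against Control, so no difference passed the test. The SD of its log2 CPM over the 9 libraries was 3.73, the 91st of the 94 from the lowest. Without LPS replicate 1, which had most of the group's reads, the LPS against Control change was -6.88 with an adjusted p of 0.0257 by edgeR, a call that rests on leaving out that library.

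**Figure D1:**
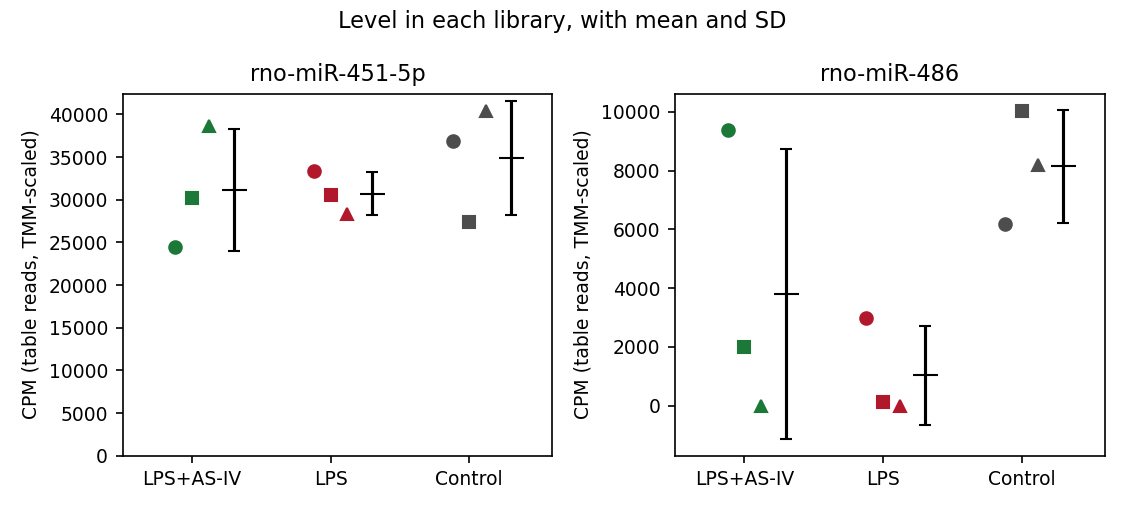
Level of miR-451-5p (left) and miR-486 (right) in each library, as TMM-scaled counts per 1000000 table reads on linear axes; symbols mark replicate 1 (circle), 2 (square) and 3 (triangle), and the bars show the mean and SD of 3 libraries. The miR-451-5p groups overlap between 24450 and 40371 CPM, while the 3 LPS libraries of miR-486 (0 to 2986 CPM) lie below the 3 Control libraries (6196 to 10036 CPM).

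miR-144-3p, the partner of miR-451 in the primary transcript, was close to absent. The table gave it 1 read in LPS+AS-IV 3, 0 in the LPS libraries and 1 in Control 2. Tags that the files place on its hairpin added 1 read in LPS+AS-IV 3 and 7 reads in LPS 1. Those 7 were 1 tag that the files score with 1 mismatch. A count of 0 allows up to 3 reads, which is between 0.315 and 0.861 reads per 1000000 assigned reads (RPM) over the 9 libraries, so a lower level was not detectable at this depth. The opposite arms, miR-144-5p and miR-451-3p, gave 0 tags in each of the 9 libraries. The pair from 1 transcript thus stood at 67874 reads of miR-451, counted over all tag classes as described next, and 2 reads of miR-144 in LPS+AS-IV 3.

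The table holds a minority of the reads that came from the miR-451 hairpin. The library files assign each tag to a mature miRNA, to a miRNA hairpin or to an RNA family of the Rfam database, and only mature tags enter the table. Counting all 3 classes, miR-451 had 1731, 9133 and 67874 reads in LPS+AS-IV, 3331, 6668 and 4891 reads in LPS, and 9175, 4806 and 13000 reads in Control. The mature class held between 18.6% (Control 1) and 36.1% (LPS 3) of them. Scaled to assigned reads, the totals were 182, 1004 and 10130 RPM in LPS+AS-IV, 358, 1914 and 547 RPM in LPS, and 1270, 882 and 1582 RPM in Control. On this scale the groups overlap in each comparison, and the libraries of LPS+AS-IV differ most from each other.

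Nearly all of these reads form a ladder, with tags that start at the first base of miR-451-5p, follow the RefSeq hairpin exactly and differ only in where they end. Tags of 18 to 26 nt and of 29 nt were seen, and none of 27 or 28 nt. The annotated 3′ arm begins at base 28 from that start, so the 29-nt tag, which had 73 reads in LPS+AS-IV 2, 39 in Control 1 and 41 in Control 2, reaches 2 bases into it. Which class a tag fell in followed its length: the 22-nt tag was mature, those of 21 and 23 nt were hairpin tags, and all other lengths were Rfam tags. The 22-nt tag made up 19.8%, 21.9% and 28.8% of the ladder in LPS+AS-IV, 28.0%, 27.3% and 36.3% in LPS, and 19.0%, 19.0% and 23.2% in Control. The tag of 21 nt, 1 base shorter and outside the table, held more reads than the 22-nt tag in each of the 9 libraries. The widest 95% Wilson interval of any share of the ladder given here was 4.71 percentage points, in counting error only, since PCR copies cannot be told from separate molecules in libraries with no molecular identifiers.

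LPS and Control libraries separated in these lengths: miR-451 tags longer than 22 nt held a smaller share in each LPS library than in each Control library. Tags longer than 22 nt held 55.3%, 32.6% and 12.9% of the ladder in LPS+AS-IV, 29.8%, 16.9% and 21.95% in LPS, and 54.7%, 48.6% and 42.3% in Control. Every LPS library lay below every Control library, and the LPS+AS-IV libraries ran from above the highest Control library to below the lowest LPS library. The means were 33.6% ± 21.2 in LPS+AS-IV, 22.9% ± 6.50 in LPS and 48.5% ± 6.18 in Control (SD, n = 3 each). LPS minus Control was -25.6 percentage points (two-sided exact permutation p = 0.1, the smallest that 3 against 3 libraries allow; adjusted p = 0.429 over 30 exact tests). With each library left out in turn it ran between -29.1 and -22.6 points. For tags longer than 23 nt the groups overlap, with 20.9% in LPS 1 and 19.9% in Control 3. LPS minus Control was then -14.0 points (exact permutation p = 0.2). LPS+AS-IV minus LPS was 10.7 points (exact permutation p = 0.6, adjusted p = 0.75), or -0.10 points without LPS+AS-IV replicate 1 and 21.1 points without LPS+AS-IV replicate 3, and LPS+AS-IV minus Control was -14.9 points (exact permutation p = 0.4, adjusted p = 0.667), or -25.7 points without LPS+AS-IV replicate 1 and -4.57 points without LPS+AS-IV replicate 3.

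**Figure D2:**
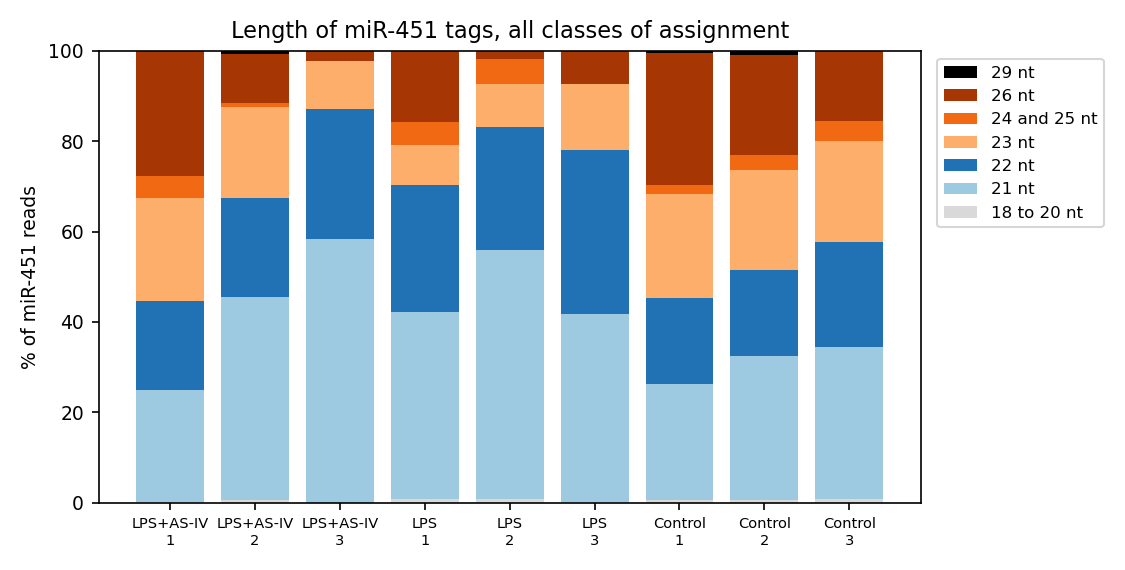
Share of miR-451 reads in each tag length (percent, bars sum to 100), for the 9 libraries, over all classes of assignment. The colours for 23 nt and longer fill 12.9% to 55.3% of the bar for the 3 LPS+AS-IV libraries, 16.9% to 29.8% for the 3 LPS libraries and 42.3% to 54.7% for the 3 Control libraries.

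Length by length, LPS and Control separated at 21, 22 and 23 nt. The 21-nt tag held 24.8%, 44.7% and 58.2% of the ladder in LPS+AS-IV, 41.3%, 55.0% and 41.5% in LPS, and 25.8%, 31.8% and 33.6% in Control. The 23-nt tag held 22.7%, 20.2% and 10.6% in LPS+AS-IV, 8.92%, 9.45% and 14.6% in LPS, and 23.1%, 22.3% and 22.5% in Control. The Control libraries thus lay within 1 point of each other at 23 nt, with a mean of 22.6% ± 0.425, and all 3 LPS libraries were below them, with a mean of 10.98% ± 3.11 (SD, n = 3 each). The difference was -11.6 points at 23 nt, 10.1 points at 22 nt and 15.6 points at 21 nt for LPS minus Control, each with an exact permutation p of 0.1 and an adjusted p of 0.429. These shares come from the same reads and add to 100, so they are not separate results. The 26-nt tag, which ends 4 bases past the mature form, held 27.6%, 10.7% and 2.34% in LPS+AS-IV, 15.8%, 1.79% and 7.39% in LPS, and 29.2%, 22.1% and 15.6% in Control. Here LPS 1 lay just above Control 3, so the groups overlap (LPS minus Control -14.0 points, exact permutation p = 0.2, adjusted p = 0.6). The library with most miRNA reads, LPS+AS-IV 3, had the smallest share of long tags and LPS+AS-IV 1, with the fewest, the largest. The part of depth in the length shares was not tested.

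To set this against other miRNAs, the share of reads longer than the mature form was taken for each of 21 RefSeq miRNAs. These had at least 50 reads in every library and shared no counted tag with another RefSeq miRNA. In 2 of the 21 (9.52%), miR-451-5p and miR-181a-5p, every LPS library was below every Control library. miR-181a-5p had 9.70% ± 2.31 in LPS and 13.1% ± 0.817 in Control (SD, n = 3 each), a difference of -3.41 points. Of the 21, miR-451-5p had the largest difference in either direction, followed by miR-484 with 20.6 points, in which the groups overlap, and let-7d-5p with 7.62 points. miR-16-5p, which red cells also hold in quantity but which is made by Dicer, had 30.96% ± 11.1 in LPS and 35.4% ± 9.30 in Control (SD, n = 3 each). The annotated form made up a median of 23.2% of miR-451-5p reads over the 9 libraries, the fifth lowest share of the 21 miRNAs.

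**Figure D3:**
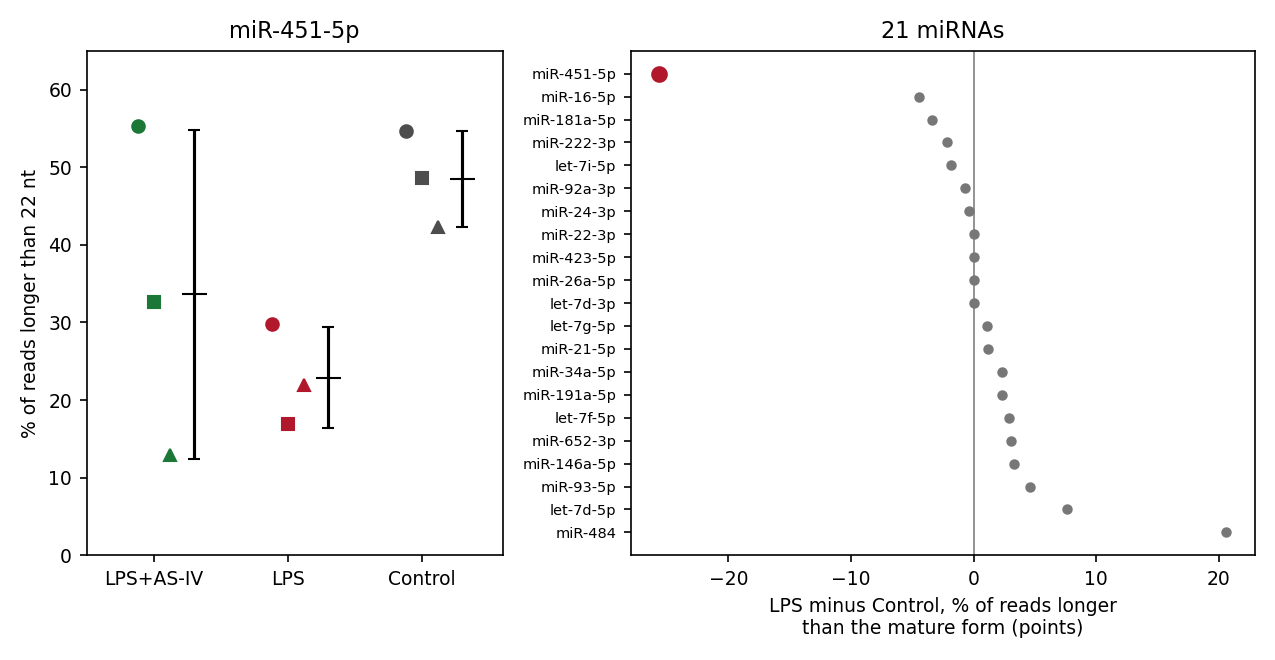
Left: percent of miR-451-5p reads in tags longer than 22 nt in each library (circle, square and triangle for replicates 1, 2 and 3), with the mean and SD of 3 libraries. Right: for 21 miRNAs, mean LPS share minus mean Control share of reads longer than the mature form, in percentage points; miR-451-5p (large red point) stands at -25.6, miR-16-5p at -4.48 and miR-484 at 20.6.

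The 22-nt tag was also looked at for base changes, which would enter neither the ladder nor the table. Tags of 22 nt with 1 change summed to between 0.566% and 2.66% of the exact tag's reads in the 9 libraries. One change, C11T (the RefSeq base, its position from the first base of miR-451-5p, and the tag's base), gave 421 reads in LPS+AS-IV 3, which was 2.18% of the 19346 reads of the exact tag there. Without each library's most frequent change, the sums were between 0.295% and 1.57%.

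miR-486 also had most of its reads outside the table in some libraries, which bears on its zeros there. Over all classes it had 171, 290 and 3 reads in LPS+AS-IV, 145, 185 and 228 reads in LPS, and 584, 584 and 1044 reads in Control. LPS 3, listed at 0 in the table, thus had 228 reads, of which 203 were Rfam tags and 25 hairpin tags, and LPS 2 had 8 mature reads of 185. Only LPS+AS-IV 3 remained at the floor of 3 reads. Scaled to assigned reads, the totals were 17.9, 31.9 and 0.448 RPM in LPS+AS-IV, 15.6, 53.1 and 25.5 RPM in LPS, and 80.8, 107 and 127 RPM in Control. Each LPS library and each LPS+AS-IV library lay below each Control library on this scale. The same held for miR-486 with mature and hairpin tags alone, for which all 94 tested miRNAs could be compared: 9 of them (9.57%) were lower without overlap in LPS than in Control, and 6 (6.38%) in LPS+AS-IV than in Control. The mean log2 difference was -1.90 for LPS minus Control and -4.02 for LPS+AS-IV minus Control (exact permutation p = 0.1 and adjusted p = 0.429 for each), and without LPS+AS-IV replicate 3 it was -2.11 for LPS+AS-IV minus Control. These 2 comparisons share the Control libraries. LPS+AS-IV minus LPS was -2.12 on the same scale (exact permutation p = 0.5, adjusted p = 0.714), the opposite sign to its fitted change in the table.

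Different libraries were led by different miR-486 tags, all with the same first 22 letters. The 25-nt tag, with 1298 reads in 7 libraries, led in LPS+AS-IV 1 (120 reads), LPS 1 (67 reads) and the 3 Control libraries (213, 268 and 602 reads). The 22-nt tag led in LPS+AS-IV 2 with 102 of 290 reads. The 23-nt tag ending in A gave 174 of the 185 reads of LPS 2, 70 reads in LPS+AS-IV 2 and 1 read each in LPS+AS-IV 3, LPS 1 and Control 3. The 24-nt tag gave 203 of the 228 reads of LPS 3 and was always an Rfam tag. The 23-nt tag ending in T gave 40, 44 and 0 reads in LPS+AS-IV, 1, 0 and 1 reads in LPS, and 115, 199 and 287 reads in Control. Class did not follow length here. The 22-nt tag shown above was mature, as was the 25-nt tag in 6 of its 7 libraries (its single read in LPS+AS-IV 3 was an Rfam tag), while both 23-nt tags shown were hairpin tags. Other tags of 22, 23, 24 and 25 nt fell in other classes than these.

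**Figure D4:**
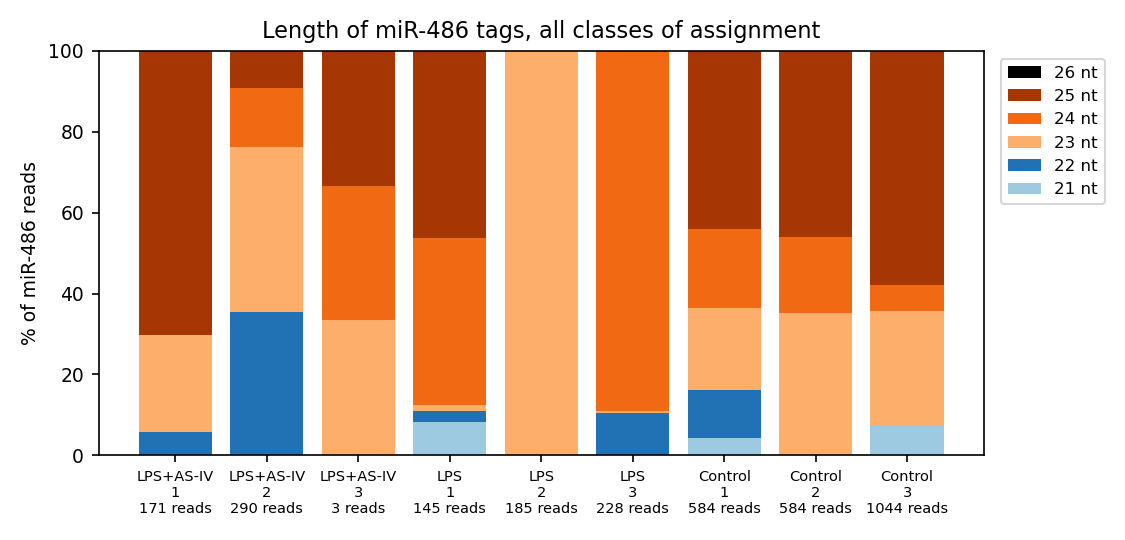
Share of miR-486 reads in each tag length (percent), over all classes of assignment, with each library's number of miR-486 reads under its name. LPS+AS-IV 3 rests on 3 reads, LPS 2 is 100% 23-nt tags and LPS 3 is 89.0% 24-nt tags, while 25-nt tags hold 44.0% to 57.9% in the 3 Control libraries.

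How far the 2 detected red-cell miRNAs moved together depended on 1 library and on the tags counted. The Pearson correlation of their log2 CPM in the table was -0.11 over the 9 libraries and 0.19 over 8 without LPS+AS-IV 3. Over all tag classes, on the log2 RPM scale, where both values share a library's assigned reads, it was -0.45 over the 9 libraries and 0.78 without LPS+AS-IV 3. These are descriptions, with no test. Per 1000 reads of miR-451 over all classes, miR-486 had 98.8, 31.8 and 0.0442 reads in LPS+AS-IV, 43.5, 27.7 and 46.6 reads in LPS, and 63.7, 122 and 80.3 reads in Control. Each LPS library was below each Control library, and LPS+AS-IV spans more than both. In mature and hairpin tags, where miR-486 per read of miR-451-5p was also lower in each LPS library, 8 of the 93 other miRNAs tested (8.6%, miR-486 among them) were so. In table reads, the log2 ratio of miR-486 to miR-451-5p, with 0.5 read added to each, was -6.84 ± 7.38 in LPS+AS-IV, -7.66 ± 4.16 in LPS and -2.11 ± 0.58 in Control (SD, n = 3 each). LPS minus Control was -5.55, with no overlap (exact permutation p = 0.1, adjusted p = 0.429), a size that depends on the tags counted: it was -2.49 with hairpin tags, -1.15 with all tag classes and, in table reads, -3.49 without LPS replicate 3. LPS+AS-IV minus Control was -4.73 (exact permutation p = 0.4, adjusted p = 0.667), or -0.53 without LPS+AS-IV replicate 3. LPS+AS-IV minus LPS was 0.82 (exact permutation p = 0.9, adjusted p = 1) and turned to -2.82 with all tag classes. LPS+AS-IV 3 lies at 1 end of both scales, with the most miR-451 and the fewest miR-486 reads of the 9 libraries.

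**Figure D5:**
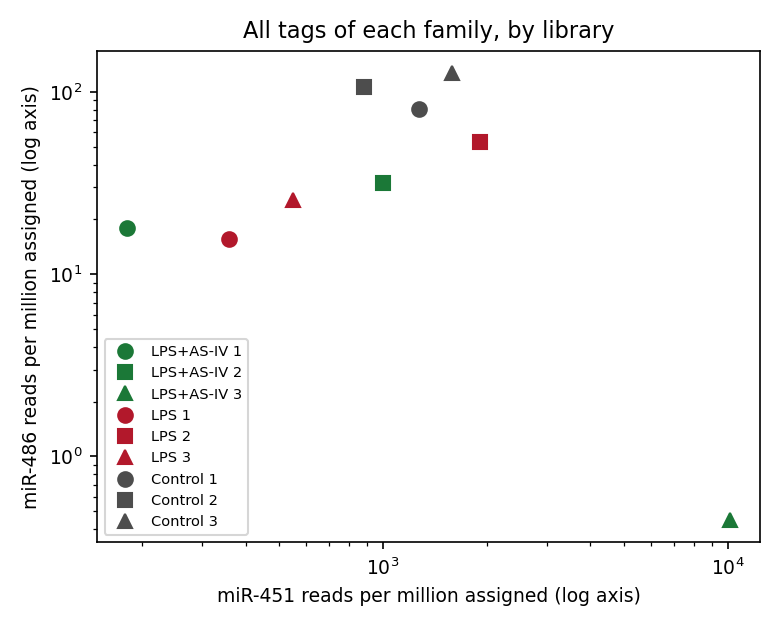
Reads of miR-486 against reads of miR-451, each per 1000000 assigned reads, over all tag classes, 1 point a library, on log axes. LPS+AS-IV 3 is alone at lower right with 10130 for miR-451 and 0.448 for miR-486, and the 6 libraries of LPS+AS-IV and LPS (at most 53.1 for miR-486) lie below the 3 Control libraries (80.8 to 127).

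The haemolysis ratio gave no separation of the groups. miR-451-5p per read of miR-23a-3p in the table was 1.51, 1.10 and 7.002 in LPS+AS-IV, 4.55, 2.94 and 2.32 in LPS, and 1.81, 2.26 and 2.41 in Control. The mean log2 ratio differed by 0.55 in LPS minus Control (exact permutation p = 0.2, adjusted p = 0.6), by -0.47 in LPS+AS-IV minus LPS (exact permutation p = 0.7, adjusted p = 0.84) and by 0.08 in LPS+AS-IV minus Control (exact permutation p = 1, adjusted p = 1). With hairpin tags counted too, LPS minus Control was -0.58 instead. miR-23a-3p itself averaged 16361 ± 10906 CPM in LPS+AS-IV, 9978 ± 2457 CPM in LPS and 16429 ± 4112 CPM in Control (SD, n = 3 each). Its log2 fold change in LPS against Control was -0.72 (SE 0.55, edgeR adjusted p = 0.861), against -0.18 for miR-451-5p. In these cultures the ratio thus also carries differences in miR-23a-3p, and how far it reads red-cell RNA was not tested.

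Other miRNAs that red cells hold in quantity, though other cells make them too, were nearly all in the table, several with few reads. Of 17 listed, 16 were detected, which here and below means a read in any library. Only 8 passed the filter and were tested, and 0 were called in any comparison. Among the untested, miR-96-5p had reads in LPS 2 alone and miR-182 in LPS 3 alone. In LPS against Control, 6 of the 8 had a fitted change above 0 and 2 below, with a median log2 fold change of 0.34 against -0.04 over all 94. miR-92a-3p, of the miR-17-92 family, stood at 106280 ± 41573 CPM in LPS+AS-IV, 96219 ± 10006 CPM in LPS and 73455 ± 8881 CPM in Control, and miR-16-5p, which restrains the cell cycle, at 17629 ± 4217 CPM in LPS+AS-IV, 16301 ± 3097 CPM in LPS and 13275 ± 4958 CPM in Control (SD, n = 3 each). Summed over the 16 detected, LPS+AS-IV libraries held 133813 to 246298 CPM, LPS libraries 171560 to 191057 CPM and Control libraries 124508 to 164360 CPM. Of the 8 tested, 4 had a fitted change above 0 and 4 below in LPS+AS-IV against LPS. In LPS+AS-IV against Control, 6 were above and 2 below.

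miRNAs that decline as red cells mature were present as well, all 6 of 6 detected and tested, with 0 called. In LPS against Control, 5 of the 6 had a fitted change above 0, in LPS+AS-IV against LPS 3, and in LPS+AS-IV against Control 5. miR-150-5p, a lymphocyte miRNA, was the most abundant of them with 32241 CPM on average in LPS+AS-IV, 27165 in LPS and 31178 in Control. Of 8 macrophage and leukocyte miRNAs, 7 were detected and 6 tested, with 0 called. Summed, the 7 detected held 54834 to 113050 CPM in LPS+AS-IV, 39718 to 68784 CPM in LPS and 52453 to 71635 CPM in Control. In LPS against Control 3 of the 6 had a fitted change above 0, in LPS+AS-IV against LPS 4, and in LPS+AS-IV against Control 6. The most abundant of this list after miR-150-5p was miR-146a-5p, with 34718 CPM on average in LPS+AS-IV, 20601 in LPS and 27353 in Control. Also on this list, miR-223-3p was detected but had no reads in LPS+AS-IV 1, LPS 1 and LPS 2. miR-142-3p has no row in the table, while miR-142-5p had reads in some libraries and did not pass the filter. Of 7 miRNAs of serum and other tissues, 7 were detected and 4 tested, with 0 called and 2 of the 4 above 0 in each comparison. They summed to 11756 to 18613 CPM in LPS+AS-IV, 7408 to 13925 CPM in LPS and 9588 to 16063 CPM in Control. The medium held bovine serum, and its part in the reads of the members was not tested.

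By Pearson correlation of log2 CPM over the 9 libraries, which share their scaling, the miRNAs most like miR-451-5p were miR-425-5p (0.87), miR-139-5p (0.66) and miR-128-3p (0.60). Those most like miR-486 were miR-411-5p (0.93), miR-151-5p (0.84) and miR-484 (0.74). Neither set holds the other red-cell member. These values rest on table reads, in which miR-486 had 8 reads in LPS 2 and 0 in LPS 3. Over all tag classes it had 185 and 228 reads there. The log2 CPM of miR-451-5p had an SD of 0.24, against 3.07, 3.02 and 3.10 for the miRNAs most like it. The correlations therefore do not show that these miRNAs belong together or that the members do not.

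The deposited table has a further column per library, headed exp, with whole numbers. For miR-451-5p these came to 56.1% of the read count in LPS+AS-IV 3 and to between 86.3% and 95.4% in the other 8 libraries. No source used here says how it was made.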

How the data were processed

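Small RNA of exosomes was sequenced on the BGISEQ-500 platform, per the labels' protocols. The authors deposited a table of whole-number read counts per mature miRNA, per the file headers not normalized, with a second whole-number count column (exp). Deposited files of single libraries gave each distinct tag's count and 1 assignment, with a score that is, per the file headers, the number of mismatches for miRNA tags. Bowtie2 and Rnor_6.0 are named, without a role, by the submitters' processing notes; the coordinates here are RefSeq's (GRCr8) and were not used to count. Neither aligner settings nor a miRBase release is given in the sources used here.

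The table's counts were tested with edgeR 4.0.16 (R 4.3.3; TMM, filterByExpr defaults, 1 quasi-likelihood fit of 9 libraries, Benjamini-Hochberg over 94 miRNAs, adjusted p under 0.05). Its common dispersion had a square root of 1.42. The fit was tested on simulated data with far less spread between libraries than these data have, so that test cannot show how the fit performs here. Ratios and shares used two-sided exact permutation tests, adjusted over 30. A planned share of long tags among mature tags alone was 0.0289% ± 0.026 in LPS+AS-IV, 0.0548% ± 0.0539 in LPS and 0.756% ± 1.23 in Control (SD, n = 3 each), since the mature class holds almost only 22 nt; the share over all classes was added after seeing this. miRNAs outside the members were named by list, the 4 most abundant at most with values, or as the 3 most alike. The members and lists were chosen with earlier results of these data known. Alternatives were DESeq2 1.42.0, other library sizes, no filter, hairpin tags, the exp column, each tag given to 1 miRNA, a replicate block and leaving out each library.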

Additional observations from a re-analysis of the deposited data

Results flagged for a closer look

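One value outside the miRNA table stood above the Control libraries. Tags of miR-486 that the files assign to Rfam, which enter no miRNA row, came to 22.7 reads per 1000000 assigned reads in LPS 3, against 22.01 in the highest Control library. These were the 203 reads of the 24-nt tag there. The small excess is in 1 library: LPS 1 had 6.45 and LPS 2 had 0 on the same scale, against 8.26 in the lowest Control library.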

How the results depend on the processing

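The direction of the length difference (LPS below Control in tags longer than 22 nt, all classes) and of the miR-486 differences from Control held in each alternative run, with ranges of -29.1 to -14.0 points for the length share, -7.17 to -2.20 for the log2 fold change of miR-486 in LPS and -4.70 to -0.61 in LPS+AS-IV. The cause of the following changes was not tested, except where named.

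The count of calls in LPS against Control was 3 with DESeq2, 2 with library totals, 2 without a filter, 2 with the exp column and 0 with each tag given to 1 miRNA, where LPS+AS-IV against Control also had 0. In LPS+AS-IV against LPS it was 1 with DESeq2 and 1 without a filter. The replicate block gave 2 calls for LPS against Control, 1 call for LPS+AS-IV against LPS and 2 calls against Control for LPS+AS-IV. Whether the labels' numbers pair the libraries is not stated. Deviations of same-numbered libraries correlated between -0.122 and 0.149, and those of others between -0.183 and 0.231. The replicate 1 libraries correlated at 0.117 (Control and LPS), 0.103 (Control and LPS+AS-IV) and 0.149 (LPS and LPS+AS-IV). Correlations this weak cannot settle whether the libraries were paired. With a library left out, the counts of calls ran from 1 to 3, 0 to 1 and 2 to 3.

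For miR-451-5p, LPS+AS-IV against LPS was -0.11 with DESeq2, -0.11 with its size factors, -0.094 with library totals, -0.0028 without a filter, -0.0024 with the replicate block and -0.30 with the exp column. With all assigned reads as library size, LPS against Control was 0.069 and LPS+AS-IV against Control 2.03. Leaving out a library gave -0.29 to 0.060 in LPS against Control, -0.35 to 0.062 in LPS+AS-IV against LPS and -0.44 to 0.077 in LPS+AS-IV against Control. For miR-486, LPS against Control ran from -6.88 to -2.20 and LPS+AS-IV against LPS from -0.35 to 5.60.

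For the log2 ratio of miR-486 to miR-451-5p, LPS+AS-IV minus LPS was -1.91 with hairpin tags and -2.82 with all classes, and -1.91 to 5.02 with a library left out. For miR-451-5p to miR-23a-3p, hairpin tags gave -0.58 in LPS minus Control and -0.66 in LPS+AS-IV minus Control, and leaving out a library -1.28 to 0.050 in LPS+AS-IV minus LPS and -0.73 to 0.60 in LPS+AS-IV minus Control. For the long share of mature tags alone, LPS+AS-IV minus LPS was 10.1 points with hairpin tags, 0.017 points with a limit of 23 nt (also LPS+AS-IV minus Control) and -0.0533 to 0.000564 with a library left out, and LPS minus Control was -1.06 to 0.00888. A limit of 21 nt gave no value, as every mature tag was longer. With a library left out, LPS+AS-IV minus LPS ran from -0.10 to 21.1 points for the share longer than 22 nt, -11.2 to 5.54 for 21 nt and -1.82 to 10.8 for 26 nt. For log2 RPM of miR-451, it ran from -0.76 to 2.14, and LPS+AS-IV minus Control from -1.50 to 1.40. Depth limits miR-144 throughout, and miR-486 in LPS+AS-IV 3. The shares over all classes, the scaling to assigned reads and the correlations without LPS+AS-IV 3 were chosen after seeing the data.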
